A study of Homo sapiens with 16 samples.

Results

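The genes described here are 5 androgen-repressed genes of prostate cancer cells: OPRK1, ACKR3, CAMK2N1, DDC and BCHE. They were taken by symbol from the 58302 genes that the deposited tables list, and each symbol had 1 gene identifier. They were followed through 16 polyA RNA sequencing libraries of VCaP, a human prostate cancer cell line that carries an androgen-driven TMPRSS2-ERG fusion. The libraries form 8 groups of 2. The line called Vc (VCaP_ctrl) had been kept for 4 months with ethanol, and the line called Ver (VCaP_enz) for 4 months with 1 µM enzalutamide. All cells of both lines were then starved for at least 48 h in medium without phenol red and with charcoal-stripped serum. They were treated for 24 h with control medium, with 1 nM of the androgen dihydrotestosterone (DHT), with 1 µM enzalutamide, or with DHT and enzalutamide together. Vc and Ver are 1 line each, and the labels do not say whether the 2 libraries of a group came from separate cultures. The p-values therefore measure the spread between libraries, which may be technical. The descriptions of all Vc libraries end in L008 and those of all Ver libraries in L002, so the line and that tag cannot be told apart.

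The androgen receptor is a transcription factor that binds DHT and then binds DNA. It is best known for switching genes on, but in prostate cancer cells it also lowers the RNA of a set of genes, which rise again when androgen is withdrawn. Enzalutamide competes with androgen for the receptor and hampers its entry into the nucleus and its binding to DNA. The 5 genes encode proteins of different kinds. OPRK1 is the kappa opioid receptor, a G protein-coupled receptor for dynorphins. ACKR3 (also called CXCR7) is an atypical receptor that binds the chemokine CXCL12 and signals through beta-arrestins. CAMK2N1 is a small inhibitor protein of calcium/calmodulin-dependent kinase II. DDC is the enzyme that makes dopamine from L-DOPA and serotonin from 5-hydroxytryptophan, and BCHE is butyrylcholinesterase, which hydrolyses choline esters.

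Levels are given as CPM, the share of a library's gene reads that fell in a gene, after scaling between libraries. Gene totals ran from 8155244 to 13273523 reads per library, so 1 read was worth about 0.1 CPM. All 10 markers of prostate luminal epithelium and VCaP had a mean of at least 1 CPM, while none of the 4 endothelial and none of the 5 immune markers did. Of the 6 fibroblast and smooth muscle markers 3 passed 1 CPM, mainly LUM, and of the 6 neuroendocrine markers 5 did. The summed fibroblast markers stood lower with DHT, going from 16.7 and 17.2 CPM in Vc control to 2.96 and 4.27 CPM with DHT, and in Ver from 53.7 and 61.0 CPM to 3.83 and 4.15 CPM. LUM carried that sum, with means of 13.8 and 0.469 CPM in Vc and 53.4 and 1.00 CPM in Ver without and with DHT, while COL1A1 stood at 1.66 and 2.13 CPM in Vc and at 1.91 and 2.08 CPM in Ver. DHT also went with a smaller share of reads in no gene, 46.9 and 47.1% against 50.1 and 50.6% in Vc control. The part of either in the results was not tested. The androgen-induced references KLK3, TMPRSS2 and FKBP5 all rose with DHT, FKBP5 in Vc from 63.9 to 1772 CPM and in Ver from 71.5 to 1778 CPM.

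With DHT, 4 of the 5 genes fell in Vc and all 5 fell in Ver. The background was wide, since 22.5% of the 22553 genes tested were called lower in Vc and 22.9% in Ver. The median log2 change of the 5 genes was -1.45 in Vc and -1.43 in Ver, against -0.04 over all genes tested in each line. The 5 genes were chosen with earlier results of these data known, so this contrast is a description only. In the medians of the 5 genes, BCHE entered at its bound against 3 reads. The falls spanned a wide range of sizes. DDC dropped 16.9-fold in Vc and BCHE to no read at all, while CAMK2N1 fell 1.69-fold. A gene was called changed at an adjusted p under 0.05, from edgeR's quasi-likelihood F test with Benjamini-Hochberg adjustment over all genes tested. Every adjusted p below is from that test unless DESeq2 is named. In bulk RNA, fewer cells with a transcript and less RNA per cell cannot be told apart.

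**Figure D1:**
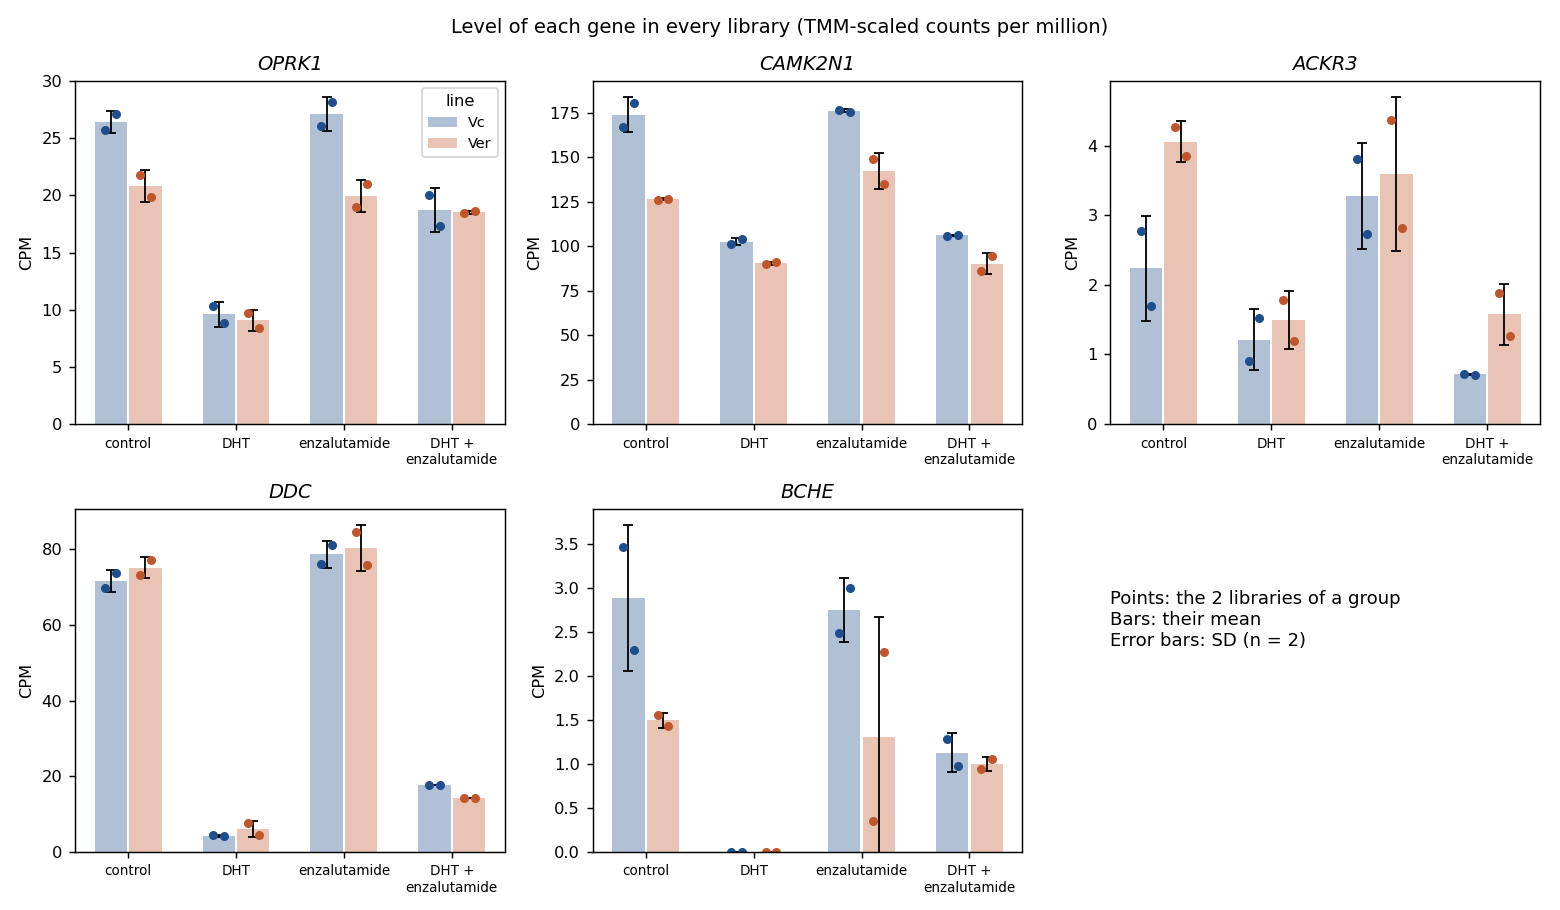
Level of each gene in every library, in TMM-scaled CPM. Points are the 2 libraries of a group, bars their mean and error bars the SD (n = 2), with Vc in blue and Ver in orange. DDC stood at 69.7 to 84.7 CPM in control and enzalutamide libraries and at 4.06 to 7.49 CPM with DHT, and BCHE had no read with DHT.

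The receptor gene OPRK1 (ENSG00000082556, chromosome 8, 53225716 to 53251697, minus strand, GRCh38) fell with DHT in both lines and was higher again when enzalutamide was added. In Vc it stood at 25.7 and 27.1 CPM with control medium, 10.3 and 8.84 CPM with DHT, 26.0 and 28.1 CPM with enzalutamide, and 20.1 and 17.4 CPM with the pair of compounds. In Ver the same 4 treatments gave 21.8 and 19.9, then 9.72 and 8.40, then 19.0 and 21.0, then 18.4 and 18.6 CPM. The DHT libraries of the lines overlapped each other and lay below all other libraries. DHT lowered OPRK1 by a log2 change of -1.45 ± 0.15 (SE) in Vc (adjusted p = 1.3e-16) and of -1.20 ± 0.16 in Ver (adjusted p = 1.3e-11). With enzalutamide present, OPRK1 was 1.94-fold above DHT alone in Vc (log2 change 0.96 ± 0.16, adjusted p = 9.5e-08) and 2.04-fold above it in Ver (1.03 ± 0.16, adjusted p = 2.1e-08). An antisense gene, AC009646.2, lies within the span of OPRK1 but shares no exon bases with it, and had 70 reads in all against 3342 for OPRK1. Of the 7 genes listed for opioid receptors and their peptides, 1 had enough reads to be tested. It was OPRL1, the nociceptin receptor, at 2.59 CPM in Vc control and 4.66 CPM in Ver control. OPRL1 fell with DHT in Ver (log2 change -1.32 ± 0.36, adjusted p = 0.00110), and in Vc its log2 change was -0.45 ± 0.38 (adjusted p = 0.350). The mu receptor gene OPRM1 and the enkephalin gene PENK had no read in any library, and PDYN, the dynorphin precursor, had 5 reads in all.

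The receptor gene ACKR3 (ENSG00000144476, chromosome 2, 236567787 to 236582358, plus strand) was low, with 8 to 46 reads per library, and its pattern was the least certain. In Vc it stood at 2.77 and 1.70 CPM with control medium, 0.903 and 1.52 CPM with DHT, 3.81 and 2.73 CPM with enzalutamide, and 0.722 and 0.705 CPM with DHT plus enzalutamide. The Ver libraries gave 4.27 and 3.85, then 1.78 and 1.20, then 4.37 and 2.81, then 1.88 and 1.26 CPM. In each line the libraries with DHT, alone or with enzalutamide, lay below the control and enzalutamide libraries. The fall with DHT passed the test in Ver (log2 change -1.43 ± 0.41, adjusted p = 0.00143) and not in Vc (-0.91 ± 0.44, adjusted p = 0.0792). The Vc value rested on single libraries: it was -1.20 without control replicate 2 (adjusted p = 0.0447) and -0.50 without control replicate 1 (adjusted p = 0.528). The lines were not shown to differ, with a difference in the DHT effect (Ver minus Vc) of -0.52 ± 0.60 (adjusted p = 0.805). Addition of enzalutamide to DHT gave a log2 change of -0.73 ± 0.53 in Vc (95% interval -1.78 to 0.32) and of 0.07 ± 0.46 in Ver (-0.83 to 0.98). These intervals include a rise to 1.25-fold in Vc and to 1.98-fold in Ver, and also a further fall in each line. No change, a partial return and a further fall therefore cannot be separated at this depth.

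Of the 9 genes listed for CXCL12 signalling, 4 had enough reads to be tested, and their median log2 change with DHT was -0.39 (Vc) and -0.61 (Ver). Over all genes tested that median was -0.04 in each line, and 22.5% (Vc) and 22.9% (Ver) were called lower with DHT. When enzalutamide was added to DHT, 11.5% (Vc) and 13.7% (Ver) of all genes tested were called higher. CXCL12 itself had 6 reads in all, its other receptor CXCR4 2 reads, and ACKR1 none. The arrestin genes ARRB1 and ARRB2, whose proteins bind activated receptors, fell with DHT in both lines. ARRB1 went in Vc from 70.7 to 37.1 CPM (log2 change -0.92 ± 0.09, adjusted p = 3.4e-18) and in Ver from 68.7 to 29.7 CPM (-1.21 ± 0.09, adjusted p = 6.2e-25). ARRB2 went in Vc from 17.0 to 6.42 CPM (adjusted p = 2.8e-12) and in Ver from 18.8 to 8.33 CPM (adjusted p = 1.3e-09). With enzalutamide added to DHT, ARRB1 stood at 55.2 and 57.1 CPM and ARRB2 at 11.2 and 14.8 CPM in Vc and Ver, and all 4 of these rises passed the test (adjusted p = 2.1e-04 or smaller). The other tested genes, CXCR3 and ACKR4, were not called in any treatment comparison.

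The kinase inhibitor gene CAMK2N1 (ENSG00000162545, chromosome 1, 20482391 to 20486220, minus strand) fell moderately with DHT and stayed at its DHT level when enzalutamide was present. In Vc it stood at 167 and 181 CPM with control medium, 101 and 104 CPM with DHT, 177 and 176 CPM with enzalutamide, and 106 and 106 CPM with the pair of compounds. In Ver it stood at 126 and 127, then 89.7 and 90.8, then 149 and 135, then 86.0 and 94.3 CPM. No library with DHT, with or without enzalutamide, reached the level of any library without DHT. DHT lowered it by a log2 change of -0.76 ± 0.06 in Vc (adjusted p = 1.7e-22) and of -0.49 ± 0.07 in Ver (adjusted p = 7.2e-11). Enzalutamide on top of DHT changed it by 0.05 ± 0.06 in Vc (95% interval -0.08 to 0.18, adjusted p = 0.678) and by -0.0019 ± 0.07 in Ver (-0.14 to 0.13, adjusted p = 0.990). The intervals bound any return at 1.13-fold in Vc and 1.10-fold in Ver, where a full return to control would need 1.69-fold and 1.40-fold.

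The genes of the kinase itself fell with DHT as well, but CAMK2B and CAMK2D rose when enzalutamide was added. Of the 5 further genes listed for calcium/calmodulin-dependent kinase II, 4 were tested, and their median log2 change with DHT was -0.85 (Vc) and -0.79 (Ver). Over all genes tested that median was -0.04 in each line, and 22.5% (Vc) and 22.9% (Ver) were called lower with DHT. When enzalutamide was added to DHT, 11.5% (Vc) and 13.7% (Ver) of all genes tested were called higher. CAMK2B, CAMK2D and CAMK2G, which encode kinase subunits, fell with DHT in both lines, and CAMK2N2, which encodes a related inhibitor, rose in Ver (0.712 to 2.19 CPM, log2 change 1.62 ± 0.60, adjusted p = 0.0159). CAMK2A, the subunit typical of neurons, had 8 reads in all. CAMK2B went in Vc from 53.3 ± 1.71 to 19.6 ± 0.976 CPM and in Ver from 81.0 ± 3.20 to 32.3 ± 0.822 CPM (mean ± SD, n = 2; adjusted p = 8.7e-28 and 4.7e-28). CAMK2D went in Vc from 124 to 58.8 CPM and in Ver from 98.0 to 46.0 CPM (adjusted p = 3.4e-30 and 1.2e-28). With enzalutamide added to DHT, CAMK2B rose to 35.9 CPM (Vc) and to 62.8 CPM (Ver) (log2 change 0.87 ± 0.11 and 0.96 ± 0.10). CAMK2D rose to 88.6 and 71.3 CPM (0.59 ± 0.07 and 0.63 ± 0.08). All 4 rises passed the test, with adjusted p of 8.4e-12 or smaller. CAMK2G was not called, at 0.32 ± 0.17 in Vc (adjusted p = 0.193) and 0.16 ± 0.17 in Ver (adjusted p = 0.550). The difference between the inhibitor gene and the kinase genes was not itself tested.

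**Figure D2:**
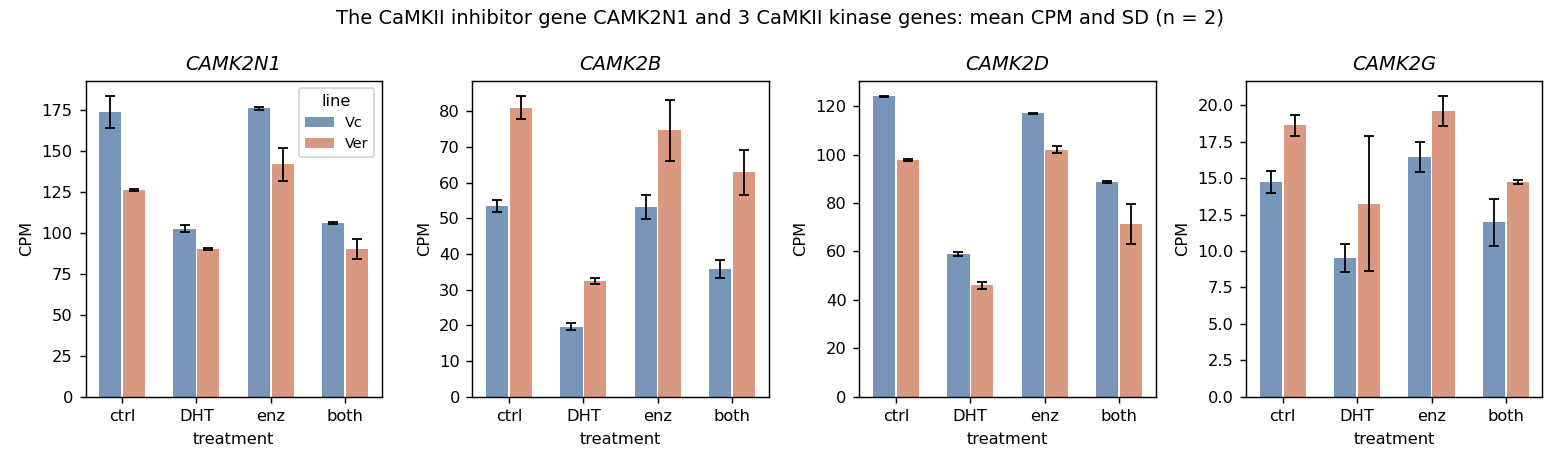
Mean CPM and SD (n = 2) of CAMK2N1 and of the kinase genes CAMK2B, CAMK2D and CAMK2G under control medium (ctrl), DHT, enzalutamide (enz) and both compounds, for Vc (blue) and Ver (orange). CAMK2N1 stood at 103 and 106 CPM with DHT and with both compounds in Vc, while CAMK2D went from 58.8 to 88.6 CPM.

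DDC (ENSG00000132437, chromosome 7, 50458436 to 50565457, minus strand) showed the steepest fall among the 4 genes that kept reads under DHT. The promoter table (RefSeq, GRCh38.p14) matched 2 of the 5 genes, DDC and BCHE, which are also those that DHT lowered most in fold. The 250 bases before each start annotated in RefSeq are printed 5′ to 3′ on the strand of the gene. Their part in the falls was not tested. DDC has 2 windows in the table, for an upstream start (chr7:50565406-50565655, minus strand, GC content 42.4%) and an internal start (chr7:50561072-50561321, minus strand, GC content 58.0%). The BCHE window (chr3:165837424-165837673, minus strand) has a GC content of 33.2%, and the median over the 35116 windows in the table is 58.0%.
DDC, upstream start: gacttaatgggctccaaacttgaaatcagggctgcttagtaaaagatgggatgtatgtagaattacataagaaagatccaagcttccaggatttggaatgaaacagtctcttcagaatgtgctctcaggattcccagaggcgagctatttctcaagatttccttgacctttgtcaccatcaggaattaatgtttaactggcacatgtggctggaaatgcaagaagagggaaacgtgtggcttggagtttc
DDC, internal start: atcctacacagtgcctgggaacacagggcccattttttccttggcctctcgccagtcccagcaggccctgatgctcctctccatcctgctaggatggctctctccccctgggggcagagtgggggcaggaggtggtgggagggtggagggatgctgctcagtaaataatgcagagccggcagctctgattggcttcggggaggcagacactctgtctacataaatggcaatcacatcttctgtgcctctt
BCHE: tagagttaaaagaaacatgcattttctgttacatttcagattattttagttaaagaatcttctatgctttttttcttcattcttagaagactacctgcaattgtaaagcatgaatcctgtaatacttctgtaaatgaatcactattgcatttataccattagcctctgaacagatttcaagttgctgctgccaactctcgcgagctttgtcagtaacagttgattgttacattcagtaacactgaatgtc
Each window was searched on both strands for the androgen receptor half-site AGAACA, the full palindrome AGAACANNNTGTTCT, which contains that half-site, and the forkhead core TGTTTAC, so matches would be in capitals. None of the 3 windows holds any of them. Of the 35116 windows, 12.4% hold the half-site, 0.00285% the palindrome and 2.98% the forkhead core. The count data do not tell which start was used, and the absence of these letters from 250 bases says nothing about binding elsewhere.

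In Vc, DDC stood at 69.7 and 73.7 CPM with control medium, 4.35 and 4.06 CPM with DHT, 76.1 and 81.3 CPM with enzalutamide, and 17.7 and 17.6 CPM with DHT plus enzalutamide. In Ver it stood at 73.2 and 77.1, then 7.49 and 4.43, then 84.7 and 76.0, then 14.2 and 14.2 CPM. The treatments fell into bands in each line, with DHT lowest, the combination next, and control and enzalutamide at the top, where these overlapped in Ver and not in Vc. DHT lowered DDC by a log2 change of -4.08 ± 0.16 in Vc (adjusted p = 4.9e-62) and of -3.65 ± 0.15 in Ver (adjusted p = 2.5e-59), which is 16.9-fold and 12.5-fold. With enzalutamide added to DHT it was 4.18-fold higher in Vc (log2 change 2.06 ± 0.17, adjusted p = 1.7e-23) and 2.38-fold higher in Ver (1.25 ± 0.16, adjusted p = 2.7e-11). It still stood at only 24.7% of its control level in Vc and 18.9% in Ver. The counting ignored strand, and the antisense gene DDC-AS1 shares 114 exon bases with DDC. Reads over bases of both genes were set aside as ambiguous, so the DDC count leaves them out. DDC-AS1 had 266 reads in all against 7718 for DDC. The summed neuroendocrine markers in Vc stood at 51.5 and 55.4 CPM with control medium and 50.7 and 53.3 CPM with DHT. Single markers went opposite ways within that sum: mean levels in Vc control and with DHT were 10.3 and 20.2 CPM for SYP, 7.11 and 1.68 CPM for ENO2, and 4.10 and 0.960 CPM for NCAM1. In Ver the sums were 66.3 and 71.7 CPM with control medium and 46.8 and 48.8 CPM with DHT, and their part in the result was not tested.

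Of the 15 genes listed for monoamine synthesis, storage, uptake and breakdown, 7 were tested. With DHT, 4 fell and 1 rose in Vc, and 3 fell and 1 rose in Ver, with medians of -0.40 and -0.17 on the log2 scale. Over all genes tested, DHT gave 22.5% lower and 21.8% higher calls in Vc, and 22.9% and 21.2% in Ver. Those that fell were MAOA, QDPR and SLC6A4 in each line and TPH1 in Vc; TPH1 and SLC6A4 were named after their values were seen. MAOA, a mitochondrial monoamine oxidase, was the most abundant. It went from 260 to 198 CPM with DHT in Vc (log2 change -0.40 ± 0.06, adjusted p = 6.1e-10) and from 157 to 139 CPM in Ver (-0.17 ± 0.06, adjusted p = 0.0123). MAOA also fell with enzalutamide alone, with 181 CPM left in Vc and 104 CPM in Ver (adjusted p = 1.7e-12 and 7.4e-14), where DDC was not called. QDPR, which regenerates the tetrahydrobiopterin cofactor, fell in Vc from 25.8 to 18.1 CPM and in Ver from 31.0 to 20.6 CPM (adjusted p = 2.9e-04 and 2.3e-05). PTS, an enzyme of tetrahydrobiopterin synthesis, rose in Vc from 23.6 to 36.3 CPM and in Ver from 24.3 to 37.6 CPM (adjusted p = 6.1e-06 and 4.6e-06). TH, the enzyme that supplies L-DOPA to DDC, had 1 read in all 16 libraries, and the dopamine beta-hydroxylase gene DBH had 4.

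BCHE (ENSG00000114200, chromosome 3, 165772904 to 165837472, minus strand) went from few reads to none with DHT. In Vc it had 45 and 27 reads with control medium (3.46 and 2.29 CPM), 0 and 0 with DHT, 30 and 34 with enzalutamide (2.49 and 3.0 CPM), and 16 and 11 with both compounds (1.28 and 0.969 CPM). In Ver it had 16 and 16 reads (1.55 and 1.43 CPM), then 0 and 0, then 3 and 25 (0.345 and 2.27 CPM), then 9 and 10 (0.942 and 1.05 CPM). No DHT library had a read and all 12 other libraries did. A count of 0 over the 2 libraries of a group allows up to 3 reads, which is 0.136 CPM in each line and covers counting error only. The folds below set the observed mean of the other group against that floor and leave out the error of that mean. On that basis BCHE was at least 21.1-fold lower with DHT in Vc (adjusted p = 2.0e-10) and at least 11-fold lower in Ver (adjusted p = 5.7e-07). With enzalutamide added it was at least 8.27-fold higher than with DHT alone in Vc (adjusted p = 1.8e-05) and at least 7.33-fold higher in Ver (adjusted p = 5.5e-05). The Ver enzalutamide libraries differed 3 reads against 25, so the level of that group is poorly known.

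Of the 8 genes listed for cholinergic function, 4 were tested. With DHT 1 fell in Vc and 2 in Ver, and their medians were 0.07 and -1.01 on the log2 scale. The 1 of 4 in Vc is near the 22.5% called lower over all genes, and in Ver that share was 22.9%. PRIMA1, the membrane anchor of acetylcholinesterase, fell with DHT from 7.76 to 2.74 CPM in Vc (log2 change -1.54 ± 0.30, adjusted p = 3.2e-06) and from 3.8 to 1.08 CPM in Ver (-1.80 ± 0.40, adjusted p = 2.1e-05). CHRNA7, the alpha-7 nicotinic receptor subunit, was low. It fell in Ver from 3.56 ± 0.916 to 1.62 ± 0.859 CPM (mean ± SD, n = 2, adjusted p = 0.0246) and stood at 0.899 and 1.00 CPM in Vc. ACHE, the related acetylcholinesterase, was not called, at 1.56 and 1.98 CPM in Vc and 2.11 and 1.14 CPM in Ver (adjusted p = 0.620 and 0.109).

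Enzalutamide alone, in cells without added androgen, gave no call for any of the 5 genes in either line. The share called over all genes was small as well, 0.537% in Vc and 1.13% in Ver. At an unadjusted p under 0.05 the count was 0 of 5 in Vc and 1 of 5 in Ver. DESeq2 called 0 in each, but gave an adjusted p for only 1 of the 5 in Vc (CAMK2N1) and 3 in Ver (CAMK2N1, OPRK1 and DDC). The 1 was CAMK2N1 in Ver, at 1.12-fold above control (log2 change 0.17 ± 0.06, adjusted p = 0.278). The DDC intervals were -0.04 to 0.31 in Vc and -0.09 to 0.27 in Ver on the log2 scale, and those of OPRK1 were -0.22 to 0.29 and -0.34 to 0.22. For BCHE the intervals ran from -0.95 to 0.79 and from -1.17 to 0.94, so a change of 1.5-fold in either direction lies inside them. For ACKR3 the intervals ran from -0.20 to 1.29 in Vc and from -0.90 to 0.52 in Ver, around estimates of 0.54 and -0.19.

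**Figure D3:**
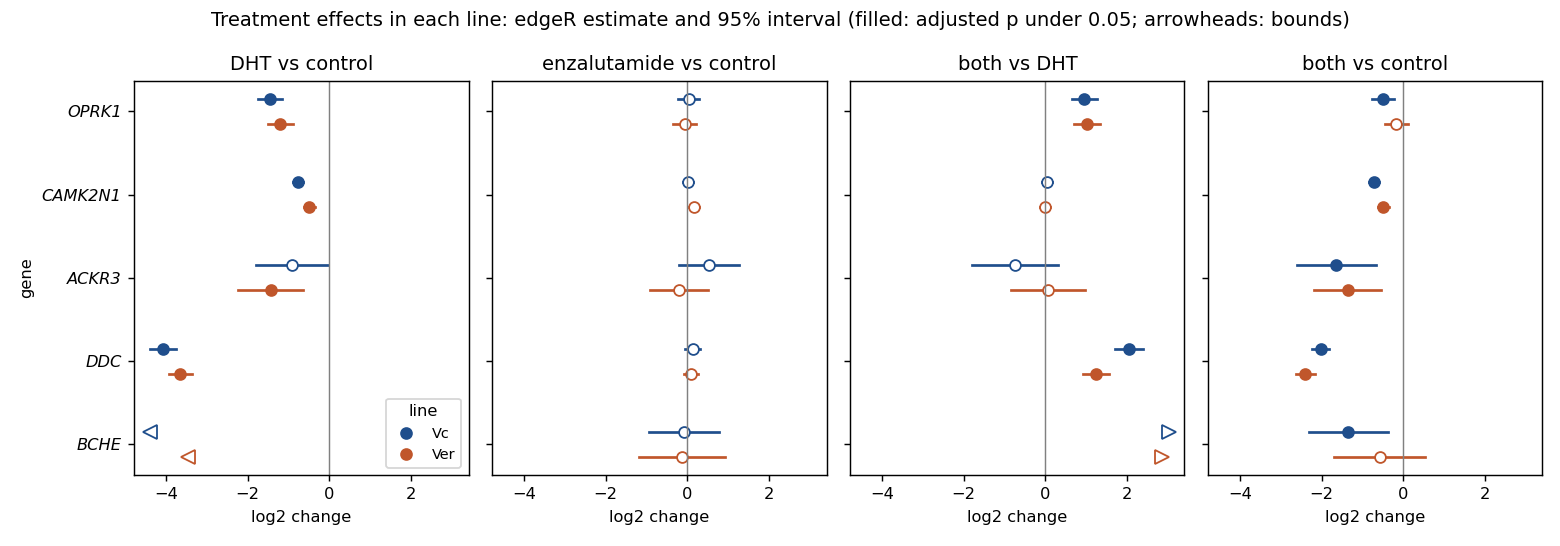
Log2 change of each gene for DHT against control, enzalutamide against control, both against DHT and both against control, as edgeR estimate with 95% interval, for Vc (blue) and Ver (orange). Filled points passed an adjusted p of 0.05 and arrowheads are the BCHE bounds against 3 reads. Enzalutamide alone shows only open points, and CAMK2N1 lies at 0.05 and -0.0019 for both against DHT.

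With DHT and enzalutamide together, the 5 genes went different ways relative to DHT alone. In each line 3 of 5 were higher, OPRK1, DDC and BCHE, where 11.5% of all genes tested were called higher in Vc and 13.7% in Ver. CAMK2N1 and ACKR3 were not called in either line. The comparison with control uses the same combination libraries and is given here for the distance that remained. All 5 genes were called lower than control in Vc and 3 were in Ver, with 13.2% and 10.3% of all genes called lower. The means of all 5 lay below control in each line. In Vc the mean level was 70.8% of control for OPRK1, 61.0% for CAMK2N1, 31.9% for ACKR3, 24.7% for DDC and 39.1% for BCHE. In Ver it was 88.9% for OPRK1, 71.4% for CAMK2N1, 38.8% for ACKR3, 18.9% for DDC and 66.9% for BCHE. OPRK1 was lower than control in Vc (log2 change -0.49 ± 0.13, adjusted p = 0.00190) and not called in Ver (-0.17 ± 0.14, adjusted p = 0.465). DDC was lower by -2.02 ± 0.11 in Vc and -2.40 ± 0.12 in Ver (adjusted p = 2.0e-39 and 1.6e-43), and CAMK2N1 by -0.71 ± 0.06 and -0.49 ± 0.07 (adjusted p = 2.5e-20 and 3.5e-10).

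The calls of the less abundant genes against control rested on single libraries. ACKR3 was lower by -1.64 ± 0.49 in Vc (adjusted p = 0.00312) and -1.36 ± 0.41 in Ver (adjusted p = 0.00644). In Vc its adjusted p was 0.125 with control replicate 1 left out. In Ver it was 0.0538 with control replicate 1 left out and 0.134 with combination replicate 2 left out. BCHE was lower by -1.34 ± 0.49 in Vc (adjusted p = 0.0251) and not called in Ver (-0.57 ± 0.57, adjusted p = 0.536). In Vc the BCHE value was 0.142 with DESeq2, 0.274 without control replicate 1, and 0.0650 and 0.168 without combination replicate 1 and replicate 2 (all adjusted p). OPRK1 lost its call in Vc without combination replicate 2 (adjusted p = 0.0741).

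**Figure D4:**
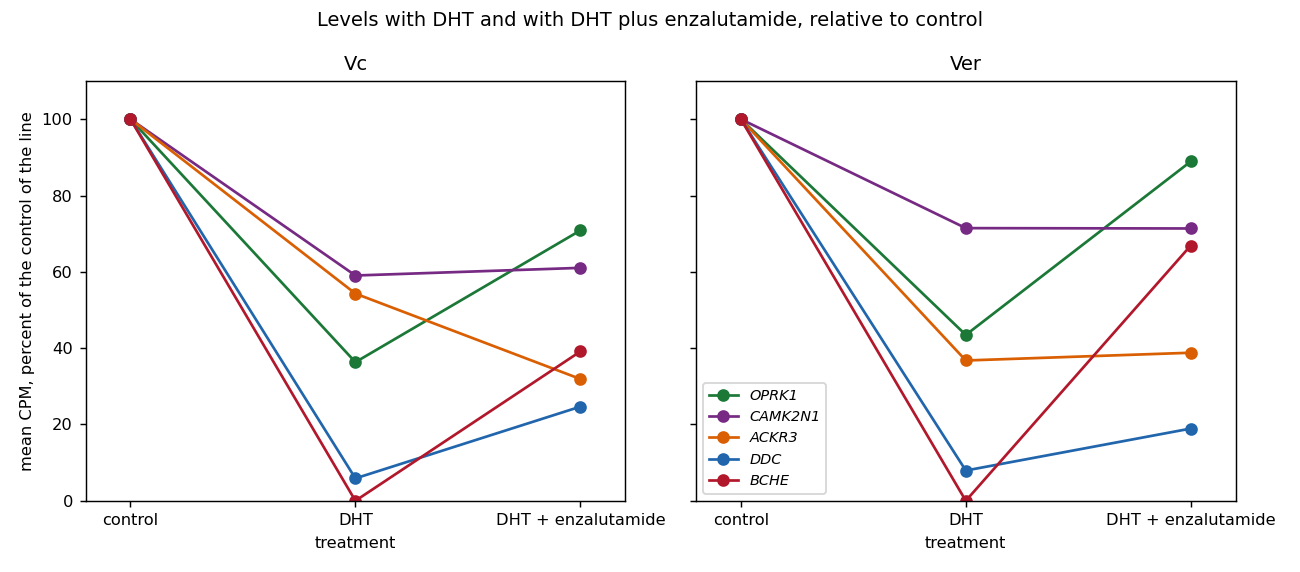
Mean CPM with control medium, DHT, and DHT plus enzalutamide, as percent of the control of the same line (n = 2 libraries a point), in Vc (left) and Ver (right). OPRK1 went from 36.3 to 70.8% in Vc and from 43.5 to 88.9% in Ver, CAMK2N1 lay flat at 59.0 and 61.0% and at 71.5 and 71.4%, and BCHE rose from no reads.

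The levels in Ver and Vc were compared under each treatment. With 1 line each, an effect of long enzalutamide exposure cannot be told apart from other differences between the lines or from the L008 and L002 tags. CAMK2N1 was the gene that differed in every treatment. It was lower in Ver by a log2 change of -0.46 ± 0.06 with control medium (adjusted p = 4.1e-10), -0.31 ± 0.06 with enzalutamide (adjusted p = 2.9e-05), -0.23 ± 0.07 with both compounds (adjusted p = 0.00456) and -0.18 ± 0.07 with DHT (adjusted p = 0.0390). The DHT value passed narrowly. It was 0.0523 with DESeq2-type size factors, 0.0614 with a fit of these groups alone, 0.0840 without a filter on low counts, 0.0980 with DESeq2 and 0.0982 to 0.228 with any 1 of the 4 libraries left out. The value with both compounds was 0.196 without Ver combination replicate 1. OPRK1 was lower in Ver with enzalutamide (log2 change -0.43 ± 0.14, adjusted p = 0.0150), and was -0.34 ± 0.13 with control medium (adjusted p = 0.0606, or 0.0308 when these groups were fitted alone). That OPRK1 call was lost with DESeq2 (adjusted p = 0.0668), and when replicate 2 of the Vc enzalutamide group (0.159) or replicate 1 of the Ver enzalutamide group (0.170) was left out.

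In all, 1 of the 5 genes was called with control medium, 1 with DHT, 2 with enzalutamide and 1 with both, all lower in Ver. Over all genes tested, 9.73%, 9.37%, 8.69% and 11% were called lower in Ver under these 4 treatments. The remaining genes did not pass. DDC stood at 71.7 ± 2.81 CPM in Vc control and 75.2 ± 2.75 CPM in Ver control (mean ± SD, n = 2; log2 change 0.07 ± 0.09, 95% interval -0.11 to 0.25, adjusted p = 0.687). With DHT its difference was 0.50 ± 0.20 (adjusted p = 0.0664). That value turned on the Ver DHT libraries, with 84 DDC reads in replicate 1 and 48 in replicate 2. It was 0.82 without replicate 2 (adjusted p = 0.00314) and 0.07 without replicate 1 (adjusted p = 0.926). ACKR3 was 0.85 ± 0.37 higher in Ver with control medium (adjusted p = 0.0993) and 1.13 ± 0.52 with both compounds (adjusted p = 0.11). BCHE was -0.95 ± 0.48 with control medium (adjusted p = 0.167) and -0.99 ± 0.50 with enzalutamide (adjusted p = 0.173); the latter was -2.94 without Ver enzalutamide replicate 2 (adjusted p = 0.00661) and -0.27 without replicate 1 (adjusted p = 0.854). With DHT neither line had a BCHE read, so no difference can be given.

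**Figure D5:**
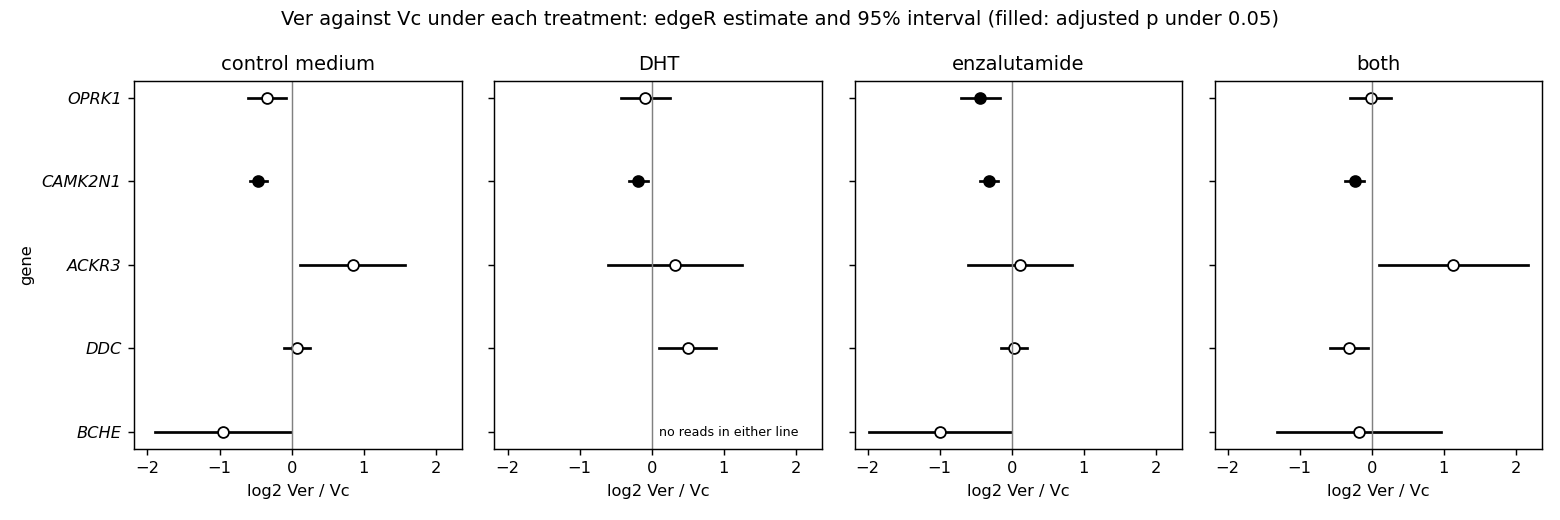
Log2 ratio of Ver to Vc for each gene under control medium, DHT, enzalutamide and both compounds, as edgeR estimate with 95% interval; filled points passed an adjusted p of 0.05. CAMK2N1 lies left of 0 in all 4 panels, from -0.46 to -0.18.

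None of the 5 genes was shown to respond differently between the lines. For the DHT effect, 0 were called by edgeR and 0 of the 3 with an adjusted p by DESeq2, and 2 had an unadjusted p under 0.05, with 2.32% of all genes called. CAMK2N1 had a difference of 0.28 ± 0.09, which missed the threshold (adjusted p = 0.0902), and DDC had 0.43 ± 0.22 (adjusted p = 0.409). For enzalutamide alone, 0 were called by either tool and 0 had an unadjusted p under 0.05, with 0.0222% of all genes called. For enzalutamide on top of DHT, 0 were called by edgeR and 0 of the 2 with an adjusted p by DESeq2 (CAMK2N1 and DDC), and 1 had an unadjusted p under 0.05, with 1.29% of all genes called. That gene was DDC, with a log2 difference of -0.81 ± 0.24 (95% interval -1.29 to -0.34, adjusted p = 0.0545). It was -1.13 without Ver DHT replicate 2 (adjusted p = 0.00519) and -0.38 without Ver DHT replicate 1 (adjusted p = 0.629). The same value for OPRK1 was 0.07 ± 0.22 (adjusted p = 0.948) and for CAMK2N1 -0.05 ± 0.09 (adjusted p = 0.905).

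Across the 8 groups, the order of levels differed by gene. OPRK1 was highest in Vc with enzalutamide (27.1 ± 1.49 CPM) and control medium (26.4 ± 0.98 CPM), whose libraries overlapped. The groups Ver control, Ver enzalutamide and the combination in each line followed at 20.8 ± 1.39 to 18.5 ± 0.15 CPM, each overlapping the next, and the DHT groups came last. CAMK2N1 was ordered more sharply. Only its upper pair, Vc with enzalutamide and Vc control, and its lower pair, Ver with DHT and Ver with both compounds, had libraries that overlapped. For ACKR3 each group overlapped the next from Ver control (4.06 ± 0.30 CPM) down to Vc with DHT (1.21 ± 0.44 CPM), and Vc with both compounds lay below (0.714 ± 0.012 CPM). For DDC the 4 groups without DHT overlapped in sequence at 80.3 ± 6.14 to 71.7 ± 2.81 CPM, and the other 4 were separate: 17.7 ± 0.085 and 14.2 ± 0.019 CPM with both compounds in Vc and Ver, 5.96 ± 2.16 CPM with DHT in Ver and 4.21 ± 0.20 CPM with DHT in Vc. BCHE was highest in Vc control (2.88 ± 0.83 CPM) and Vc with enzalutamide (2.74 ± 0.36 CPM), followed by an overlapping run from Ver control (1.49 ± 0.085 CPM) to Ver with both compounds (0.997 ± 0.078 CPM). Per kilobase of merged exon, the level in Vc control was 66.4 RPKM for CAMK2N1, 22.9 for DDC, 4.60 for OPRK1, 0.990 for ACKR3 and 0.934 for BCHE.

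The genes with the most similar patterns were found by Pearson correlation of log2 CPM over the 16 libraries, among 12427 or 12428 other genes whose mean reached 5 CPM. The libraries share lines and treatments, so these values describe the profiles and carry no test. The closest to OPRK1 were APBA2 (r = 0.987), LAMB1 (0.980) and TMEM45B (0.980). APBA2 ran at 35.2, 9.46 and 20.8 CPM in Vc and 28.6, 8.07 and 22.9 CPM in Ver with control medium, DHT and both compounds. The closest to CAMK2N1 were TNRC6C (0.972), DLEU1 (0.971) and PCGF5 (0.970). TNRC6C ran at 56.4, 36.7 and 38.7 CPM in Vc and 43.4, 36.4 and 36.9 CPM in Ver. PCGF5 ran at 126, 49.5 and 53.7 CPM in Vc and 66.8, 27.8 and 35.4 CPM in Ver. The closest to ACKR3 were CLU (0.944), IKBKB (0.910) and QSOX1 (0.909). QSOX1 ran at 16.5, 9.33 and 7.15 CPM in Vc and 21.3, 13.8 and 11 CPM in Ver, lowest with both compounds. The closest to DDC were TXN (0.991), LRRN1 (0.989) and HADH (0.988). Of these 3 LRRN1 had the deepest fall in fold, though less deep than that of DDC. It went in Vc from 42.6 to 3.97 CPM and in Ver from 35.3 to 5.52 CPM with DHT. The closest to BCHE was OPRK1 itself (0.964), followed by MDN1 (0.964) and TMEM75 (0.960). Among the 5 genes, r ran from 0.401 for ACKR3 and BCHE to 0.964 for OPRK1 and BCHE.

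A list of 12 other genes known to be lowered by androgen had 11 tested members. With DHT 9 fell and 1 rose in each line, and the median log2 change was -2.05 for Vc and -2.31 for Ver. Of all genes tested, 22.5% were called lower and 21.8% higher in Vc, and 22.9% and 21.2% in Ver. The list was chosen with earlier results of these data known, so this contrast is a description only. The genes that rose were HES6 in Vc (2.66 to 5.79 CPM, adjusted p = 4.7e-04) and PEG3 in Ver (6.19 to 11.9 CPM, adjusted p = 3.2e-05), named after their values were seen. With enzalutamide added to DHT, 7 were higher than with DHT alone in each line, and CLU was lower in Vc. The share called higher over all genes tested was 11.5% in Vc and 13.7% in Ver. MYC, a growth-promoting transcription factor, went from 378 to 52.7 CPM with DHT and to 206 CPM with both compounds in Vc, and from 319 to 41.7 and 227 CPM in Ver. THBS1, a secreted matrix glycoprotein, went from 412 to 172 and 230 CPM in Vc, and from 195 to 80.9 and 138 CPM in Ver. CLU, an extracellular chaperone, was at 193, 130 and 114 CPM in Vc and 243, 163 and 158 CPM in Ver. Its log2 change for enzalutamide on top of DHT was -0.19 ± 0.06 in Vc (adjusted p = 0.0177) and -0.05 ± 0.06 in Ver (adjusted p = 0.581).

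Genes near the 5 were also examined. Within 250 kb of the start of each there were 11 protein-coding genes, 8 of them tested, and with DHT 4 fell and 2 rose in each line (medians -0.41 and -0.63 on the log2 scale). The 2 of 8 that rose are near the 21.8% and 21.2% called higher over all genes, and 22.5% and 22.9% were called lower. Near CAMK2N1 both named neighbours rose. DDOST, a subunit of the oligosaccharyltransferase complex whose start lies 175.3 kb away, rose by 0.94 ± 0.06 in Vc and 0.84 ± 0.06 in Ver (adjusted p = 8.8e-34 and 1.9e-29). MUL1, a mitochondrial ubiquitin ligase 21.9 kb away, rose by 0.93 ± 0.11 and 0.62 ± 0.11 (adjusted p = 7.8e-13 and 8.1e-07). KIF17 in each line, SH2D5 in Vc and VWA5B1 in Ver, also near CAMK2N1 and named after their values were seen, fell. Near DDC both neighbours fell, but far less than DDC. FIGNL1, which overlaps DDC without shared exon bases, fell by 0.92 on the log2 scale in Vc (adjusted p = 1.2e-09) and by 0.79 in Ver (adjusted p = 3.5e-07), and the adapter gene GRB10 fell by 0.54 and 0.53 (adjusted p = 2.1e-16 and 3.3e-16). OPRK1 and BCHE had no protein-coding neighbour within 250 kb, and the 1 neighbour of ACKR3 was too low to test.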

How the data were processed

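RNA was sequenced from 16 VCaP libraries in 8 groups. The authors deposited a file of read counts per gene for each library, and 1 table of normalized signal, from which only gene symbols were taken; its values were checked and equal each count over the DESeq2 size factor of its library. Reads had been handled with FastQC 0.11.7, Trimmomatic 0.36-5, HISAT2, SAMtools and HTSeq 0.11.1 on GRCh38, per the submitters' processing notes; the count file names give unstranded counting in union mode. Reads in no gene (45.0 to 50.6% of counted reads) and ambiguous reads (7.09 to 8.55%) were set aside.

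Counts were filtered with filterByExpr by group (22553 of 58302 genes kept, all 5 members among them), scaled by TMM and tested with edgeR 4.0.16 (R 4.3.3; robust quasi-likelihood F test, two-sided) over all 16 libraries, with group as the only term and 8 residual degrees of freedom. p-values were adjusted over all genes tested. SEs are Wald errors of the quasi-likelihood fit, with Poisson counting error as the minimum. Folds against a group without reads use a floor of 3 reads over the group and the observed mean of the other group, without its error. RPKM values were computed here over merged exons of GENCODE 29. Alternatives were DESeq2 1.42.0, its size factors, no filter, a fit of only the groups compared, a replicate block, and each library left out.

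The members and gene lists were chosen with earlier results of these data known. Named are the 5 members, the 4 most abundant of each list, the 3 closest patterns per member, KLK3, TMPRSS2 and FKBP5, the named neighbours, and genes that a small count required. The values of some listed genes are not reported here.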

Additional observations from a re-analysis of the deposited data

How the results depend on the processing

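Limits: each group has 2 libraries, Vc and Ver are single lines, and ACKR3 and BCHE rest on 0 to 46 reads per library. All values of the 5 genes kept their direction where called. Replicate numbers did not pair the libraries: of 28 pairs of groups, 1 had a correlation of same-numbered deviations over 0.1 (0.102, lowest -0.122). With a replicate block no call of the 5 genes changed; the block gave DDC a log2 change of -4.08 with DHT in Vc and CAMK2N1 0.05 for enzalutamide on top of DHT in Vc.

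The number of the 5 genes called for DHT plus enzalutamide against control in Vc was 5, and 3 to 5 with 1 library left out. For the difference between lines in the effect of enzalutamide on top of DHT it was 0, and 0 to 1 with 1 library left out. For Ver against Vc it was 1 with control medium and 2 when only those groups were fitted. With DHT it was 1, and 0 with DESeq2, with DESeq2-type size factors, without the low-count filter and when only those groups were fitted, and 0 to 1 with 1 library left out. With both compounds it was 1, and 0 to 1 with 1 library left out. With enzalutamide it was 2, 1 with DESeq2, and 1 to 3 with 1 library left out. The cause of these changes was not tested. DESeq2 gave no adjusted p for some of the 5 genes. These were OPRK1, ACKR3, DDC and BCHE for enzalutamide in Vc, ACKR3 and BCHE for enzalutamide in Ver and for the difference in the DHT effect, and OPRK1, ACKR3 and BCHE for the difference in enzalutamide on top of DHT. BCHE also had none for DHT plus enzalutamide against DHT in Vc and for Ver against Vc with control medium and with DHT, so these DESeq2 counts cover fewer genes.

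Over all genes, the number called for the difference in the DHT effect was 523, 344 with DESeq2 and 300 to 529 with 1 library left out. For enzalutamide on top of DHT it was 291 and 93 to 357. For the difference in the enzalutamide effect it was 5, 2 with DESeq2, 10 with only those groups and 1 to 4 with 1 library left out. Enzalutamide alone gave 121 in Vc (47 to 62) and 255 in Ver (112 to 174), and Ver against Vc with control medium 4252 (2828 to 3191).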
